A study of Mus musculus with 6 samples.

Results

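The genes of the molecular chaperones that work in the cytosol and in mitochondria were compared between 4T1 and 4TO7, a pair of mouse mammary carcinoma cell lines. Members were the protein-coding rows whose symbol belongs to the Hsp90aa, Hsp90ab, Hspa, Hspb, Hsph, Hspd, Hspe, Cct, Tcp1, Dnaja or Dnajb series, leaving out the endoplasmic reticulum (ER) chaperones Hspa5, Dnajb9 and Dnajb11. This gave 49 of the 47729 rows: 2 HSP90 genes, 10 HSP70 genes, 3 HSP110 genes, 4 J proteins of class A, 11 of class B, 9 CCT genes, 2 genes of the mitochondrial chaperonin and 8 small heat shock proteins. Of these, 36 were tested, because 3 or more of the 6 libraries held a normalised read count of 10 or higher. Both lines came from a spontaneous tumour of a BALB/c mouse, carried no stated genetic change and were grown untreated in DMEM with 10% FBS. There were 3 libraries per line. Each line is a single cultured line, and nothing states that its 3 libraries came from separate cultures, so p-values measure only the spread between these libraries, which may be technical.

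Chaperones bind unfolded stretches of other proteins and let them fold, refold or be degraded. HSP70 binds and releases short hydrophobic segments in a cycle driven by ATP, in which J proteins start hydrolysis and deliver the client, and HSP110 and other exchange factors open the nucleotide pocket. HSP90 acts later, on kinases and steroid receptors that HSP70 hands over, while the barrel-shaped chaperonins (CCT in the cytosol, Hspd1 with its lid Hspe1 in mitochondria) enclose a client, and small heat shock proteins hold aggregating proteins without ATP. Many of these genes are transcribed at a basal rate in growing cells and are induced further by heat shock factor Hsf1, which binds inverted repeats of the letters GAA.

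Some symbols fit the label by name only. Hspa13 is known as a microsomal HSP70, Dnajb12 and Dnajb14 are J proteins anchored in the ER membrane, and Hspb11 is known as a subunit of ciliary transport. Cct6a, the zeta subunit of the cytosolic chaperonin, carried another biotype in the table and was therefore no member. It was read at 28178, 29251 and 23657 normalised reads in 4T1 and at 17413, 25051 and 14934 in 4TO7 and was not called (adjusted p = 0.0566).

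Promoter sequence was searched for inverted repeats of the letters GAA. Binding of heat shock factor to them was not tested. RefSeq promoter windows (build GRCm38.p6) were matched for 42 of the 49 members, and the 250 bases before each start were searched on both strands. The pattern of 3 units, GAANNTTCNNGAA or TTCNNGAANNTTC, lay in 0.466% of all 32851 windows, in 0.514% of the 27025 genes they belong to and in 3 matched members. Those were Dnajb6 and the pair Hspd1 and Hspe1, which share a promoter region, so the same site may be counted in both. The shorter pattern of 2 units, GAANNTTC or TTCNNGAA, which is contained in the longer one, lay in 12.84% of windows, in 14.549% of genes and in 15 matched members. By call, it was present in 7 of the 16 matched members that were higher in 4T1. It was also present in 2 of 4 that were higher in 4TO7, in 3 of 9 not called and in 3 of 13 not tested. Among members called with a log2 difference of at least 1, Cct5 and Hspd1 also had a 2-unit match but are not printed. Hspa2 had none, and Hsp90aa1, Hspa14 and Dnaja2 had none or no matched window. The following stretches come from the other such members with a match. They are printed 5′ to 3′ on the gene's own strand, with each 2-unit match within them in capitals.
Hspb1: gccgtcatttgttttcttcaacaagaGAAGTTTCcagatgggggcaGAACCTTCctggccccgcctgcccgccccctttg
Hspa1b: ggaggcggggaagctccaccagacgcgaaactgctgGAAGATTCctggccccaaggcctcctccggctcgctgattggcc
Dnaja4: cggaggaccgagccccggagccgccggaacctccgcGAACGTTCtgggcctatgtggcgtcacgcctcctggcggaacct
Hspb6: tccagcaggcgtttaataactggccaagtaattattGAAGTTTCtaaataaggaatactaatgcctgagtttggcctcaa
Hspe1: ccgTTCTAGAACCTTCCGGAAggc
Hsph1: tctTTCTCGAAggc
The Hspb1 stretch is chr5:135887776-135887855 (plus strand) and the Hspa1b stretch chr17:34959299-34959378 (minus strand). Dnaja4's is chr9:54699433-54699512 and that of Hspb6 chr7:30553145-30553224, both on the plus strand. Both lie before the RefSeq start but inside the annotated gene spans given below, in no annotated exon. The Dnaja4 window held 2 matches, of which 1 is shown. For Hspe1 and Hsph1 the match lies inside an annotated exon (of Hspd1, transcribed the other way from the shared promoter, and of Hsph1 itself), so only the site with 3 bases on each side is shown. These are chr1:55088056-55088079 (plus strand) and chr5:149636359-149636372 (minus strand). The capital run of Hspe1 holds 3 overlapping 2-unit matches. Both a member higher in 4T1 and a member higher in 4TO7 carried the same 8 letters, GAAGTTTC, in Hspb1 and Hspb6.

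Libraries held 33605566 to 39072639 reads assigned to genes. Within 4TO7, replicate 2 stood apart: it was the highest of the 3 libraries of that line in 25 of the 36 tested members, where 40.5% of all tested genes had it highest, and in 23 of the 28 members with a mean of at least 1000, where 52.5% of genes at that level did. The median ratio of replicate 2 to the mean of replicates 1 and 3 was 1.27 over members and 0.982 over all tested genes. Some results that rest on that library are given without it below. The summed markers of leukocytes ranged from 251 to 470 normalised reads in 4T1 and from 93.6 to 158 in 4TO7, with Cd3e, Itgam and Adgre1 without a read in any library. Most of these sums was Cd68, at 227, 313 and 431 in 4T1 and 90.8, 106 and 156 in 4TO7 (limma, adjusted p = 0.00534). Csf1r was also higher in 4T1 (22.2, 26.9 and 34.8 against 1.87, 5.24 and 1.99). Endothelial markers summed to at most 19.2 in every library. Epithelial markers summed to 184479 to 206994 in 4T1 and to 25835 to 42470 in 4TO7, where Krt8 and Krt18 made up nearly all of the sum and Cdh1 (149, 139 and 221) and Epcam (21.5, 15.7 and 33.8) were low. The part of these differences in the chaperone results was not tested. In whole-culture RNA, fewer cells expressing a gene and less RNA per cell cannot be told apart.

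Chaperone genes were mostly higher in 4T1. At an adjusted p under 0.05 in limma, fitted over all 14276 genes that passed the filter, 21 of the 36 tested members were higher in 4T1, where 25.1% of all tested genes were, and 4 were higher in 4TO7, where 23.9% of all tested genes were. Another 11 were not called. The median difference (4T1 minus 4TO7, in log2 of the normalised read count plus 1) was 0.64 over the tested members and 0.03 over all tested genes. The 3 4T1 libraries lay wholly above the 3 4TO7 libraries in 21 tested members and wholly below them in 6, against 29.8% and 28.7% of all tested genes. Among the abundant members, with a mean of at least 1000, 17 of 28 were higher in 4T1 and 3 in 4TO7, against 28.4% and 20% of genes at that level. Without 4TO7 replicate 2 the members called numbered 23 and 5, against 29.2% and 27.3% of all tested genes, and the median difference was 0.65. In the authors' deposited table, 21 members were higher in 4T1 and 5 in 4TO7 at an adjusted p under 0.05, of 43 members with a value.

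**Figure D1:**
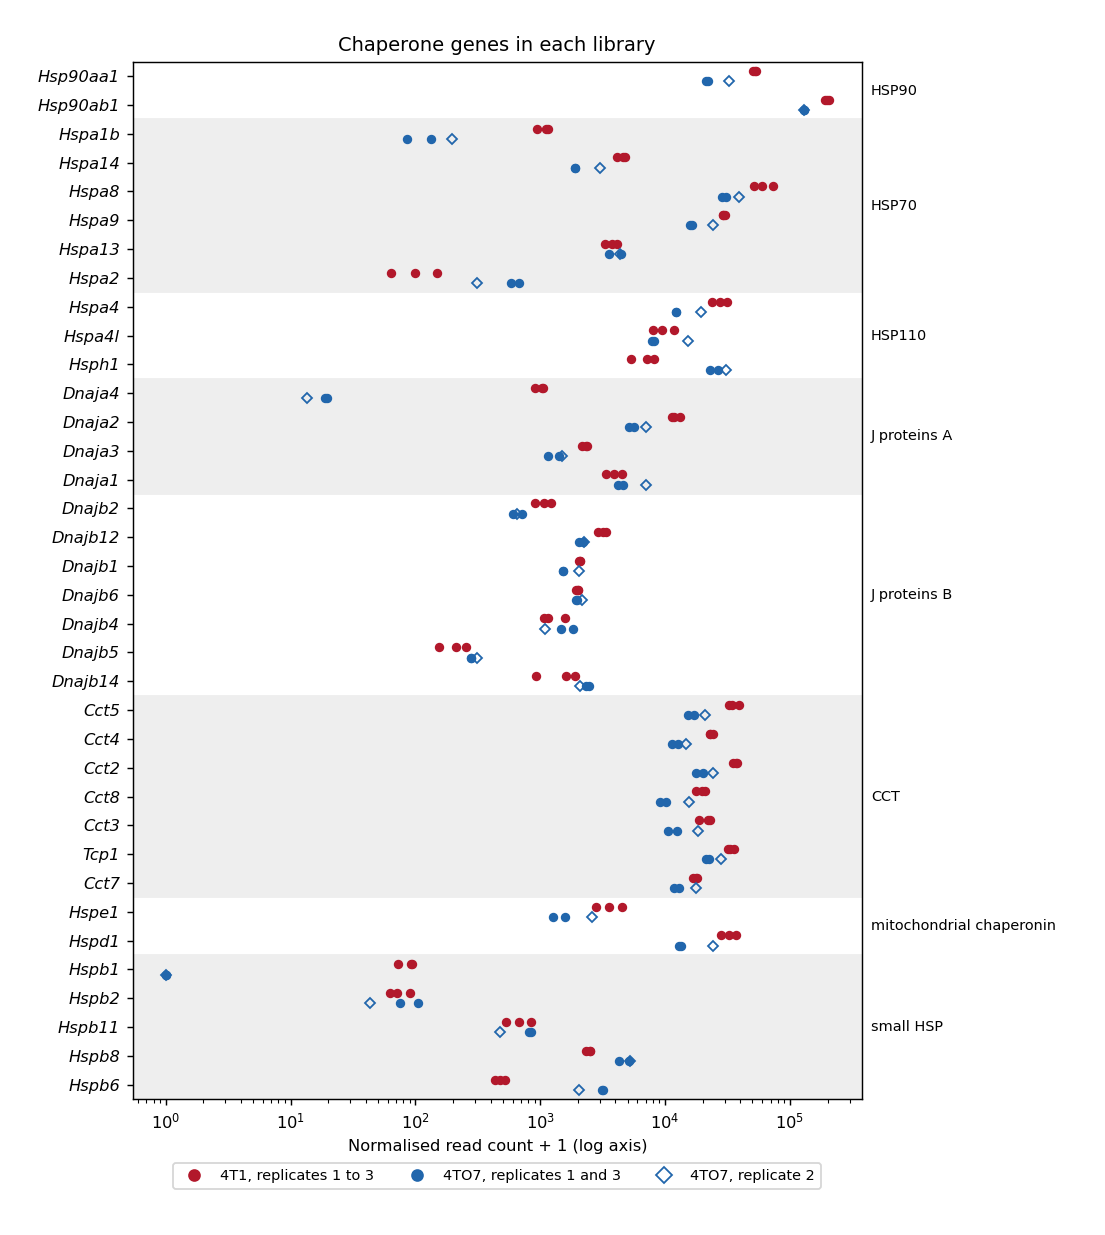
Normalised read count plus 1 (log axis) of each of the 36 tested chaperone genes, grouped by class, with 1 point per library: red for 4T1, blue for 4TO7, and an open diamond for 4TO7 replicate 2. In 21 genes all red points lie to the right of all blue points and in 6 all lie to the left, and the diamond is the rightmost 4TO7 point in 25 genes.

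HSP90 took the largest share of the chaperone reads, and both of its isoforms were higher in 4T1. Hsp90ab1, the constitutive isoform, was read at 199110, 192548 and 204474 normalised reads in 4T1 and at 130633, 129075 and 130288 in 4TO7. The groups did not overlap, and the level was 1.53-fold higher in 4T1 (adjusted p = 0.00179). Hsp90aa1, the isoform that heat shock induces more strongly, stood at 52900, 53408 and 50381 in 4T1 and at 22232, 32321 and 21394 in 4TO7. It was 2.06-fold higher in 4T1 (log2 difference 1.07 ± 0.17 SE, adjusted p = 0.00128), and its highest 4TO7 library, replicate 2, remained below every 4T1 library. Per 1000 bases of its principal transcript, Hsp90ab1 had the highest level of all tested members, with 78854 ± 2370 normalised reads in 4T1 and 51587 ± 325 in 4TO7 (SD, n = 3). Hsp90aa1 shares 41.8% of its 50-base words with the pseudogene Gm12346, which was itself read at 0.992% of its level in 4T1 and 0.918% in 4TO7.

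Within HSP70, 4 of the 6 tested genes were higher in 4T1, against 25.1% of all tested genes, and Hspa2 was higher in 4TO7. Hspa8, the constitutive cytosolic HSP70, was read at 72660, 51888 and 59455 normalised reads in 4T1 and at 28514, 39389 and 30975 in 4TO7. All 4T1 libraries lay above all 4TO7 libraries, and the ratio was 1.86 (log2 difference 0.90 ± 0.17 SE, adjusted p = 0.00343). Hspa8 shares 34.6% of its 50-base words with the processed pseudogene Gm15459, which was listed at 37.1% of the Hspa8 level in 4T1 and 39.2% in 4TO7. The sources used here do not state how reads that match both were divided. The sum of Hspa8 and Gm15459 was 1.83-fold higher in 4T1, close to the ratio of Hspa8 alone.

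The stress-inducible HSP70 gene Hspa1b (chr17:34956436-34959238) had the largest difference of the class. It was read at 1147, 1120 and 947 normalised reads in 4T1 and at 85.1, 196 and 132 in 4TO7, a 7.77-fold higher level in 4T1 (log2 difference 3.02 ± 0.29 SE, adjusted p = 7.62e-05). Its near-identical neighbour Hspa1a, which shares 58.8% of its 50-base words with Hspa1b, was almost unread, with 3.03, 0 and 0.965 in 4T1 and 0, 0 and 1.99 in 4TO7. The sum of the pair was 7.75-fold higher in 4T1. The sources used here do not state how reads that fit both copies were counted. If they were left out, the sum and the level of Hspa1b are understated. Per 1000 bases, Hspa1b had 382 ± 38.7 normalised reads in 4T1, where Hspa8 had 25620 ± 4391 (SD, n = 3).

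Mortalin (Hspa9), the HSP70 of the mitochondrial matrix, was read at 28875, 30310 and 28836 in 4T1 and at 15801, 24033 and 16455 in 4TO7. It was 1.56-fold higher in 4T1 (adjusted p = 0.0127). The call was lost without 4TO7 replicate 1 (adjusted p = 0.0539, with a range of 0.000328 to 0.0539 over the 17 alternative analyses). Hspa14, a ribosome-associated HSP70, stood at 4563, 4753 and 4086 against 1895, 3018 and 1909, a 1.96-fold higher level in 4T1 (adjusted p = 0.00358). Hspa2, known for its role in spermatogenesis, ran the other way, with 97.9, 62.8 and 148 in 4T1 and 587, 311 and 669 in 4TO7. Its 4TO7 mean was 5.08-fold higher (log2 difference -2.34 ± 0.39 SE, adjusted p = 0.00149), although replicate 2 was here the lowest 4TO7 library. Hspa13 was not called (log2 difference -0.14, adjusted p = 0.451). Hspa1l, Hspa12a and Hspa12b were read at no more than 21.9 in any library and were not tested.

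The HSP110 genes, which encode the large relatives of HSP70 that exchange its nucleotide, did not move together. Hspa4 (Apg-2) was read at 27301, 31125 and 23597 normalised reads in 4T1 and at 12176, 19407 and 12213 in 4TO7, 1.87-fold higher in 4T1 (log2 difference 0.93 ± 0.21 SE, adjusted p = 0.00629). Hsph1 (Hsp105, chr5:149614287-149636376) stood at 8104, 7162 and 5355 in 4T1 and at 22989, 30895 and 26643 in 4TO7. That is a 3.91-fold higher level in 4TO7 (log2 difference -1.98 ± 0.19 SE, adjusted p = 6.09e-05), and the groups did not overlap. Hspa4l was not called, at 9758 ± 1945 in 4T1 and 10444 ± 4128 in 4TO7 (SD, n = 3, adjusted p = 0.891). Its 4TO7 replicate 2 had 1.89 times the mean of the other two 4TO7 libraries. The leading HSP110 gene by level per 1000 bases thus differed: Hspa4 in 4T1, with 5921 ± 815 against 1808 ± 367 for Hsph1, and Hsph1 in 4TO7, with 7060 ± 1041 against 3161 ± 902 for Hspa4.

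J proteins of class A are the general partners that carry clients to HSP70. Of these, 3 of 4 genes were higher in 4T1, against 25.1% of all tested genes. Dnaja4 (chr9:54698873-54716315) was read at 1025, 1057 and 909 normalised reads in 4T1 and at 18.7, 12.6 and 17.9 in 4TO7. It was 60.8-fold higher in 4T1 (log2 difference 5.86 ± 0.24 SE), and its adjusted p of 4.59e-07 was the lowest of all tested members. Dnaja4 shares 42.7% of its 50-base words, strand disregarded, with Wdr61. The sources used here do not state a strand setting for the counting. Wdr61 itself was read at 2348 ± 193 in 4T1 and 1739 ± 148 in 4TO7 (SD, n = 3) and was called higher in 4T1 (adjusted p = 0.0302). The sum of Dnaja4 and Wdr61 was 1.91-fold higher in 4T1. Dnaja2 stood at 11868, 13248 and 11397 in 4T1 against 5612, 7020 and 5092 in 4TO7, 2.06-fold higher in 4T1 (adjusted p = 0.000768). The mitochondrial member Dnaja3 had 2278 ± 117 against 1354 ± 179 (SD, n = 3), 1.68-fold higher in 4T1 (adjusted p = 0.0034). Dnaja1, the partner of Hspa8 that is itself heat inducible, was not called. Its values were 3859, 4489 and 3354 in 4T1 and 4555, 6972 and 4195 in 4TO7, which overlap (log2 difference -0.40 ± 0.21 SE, adjusted p = 0.151).

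Of the 7 tested J proteins of class B, 2 were higher in 4T1, a share near the 25.1% of all tested genes. The other 5 were not called. Dnajb2, a J protein known from neurons that passes clients to the proteasome, was 1.62-fold higher in 4T1 (1062 ± 163 against 655 ± 60.0, adjusted p = 0.0103). Dnajb12 was 1.45-fold higher in 4T1 (3125 ± 236 against 2154 ± 96.4, adjusted p = 0.00877). Dnajb1, the classical heat-inducible HSP40 of the cytosol, was read at 2095, 2037 and 2063 normalised reads in 4T1 and at 1525, 2058 and 1528 in 4TO7. Only 4TO7 replicate 2 reached the 4T1 range, and the gene was not called (log2 difference 0.29 ± 0.16 SE, adjusted p = 0.155). Without that library its log2 difference was 0.44 and the adjusted p 0.02, with a range of 0.02 to 0.406 over the alternatives. Dnajb14 and Dnajb5 had all 4TO7 libraries above all 4T1 libraries and were not called (log2 difference -0.69, adjusted p = 0.052, and -0.51, adjusted p = 0.101). Dnajb14 was called higher in 4TO7 in 8 of the 17 alternatives, with adjusted p-values from 0.023 to 0.137 over all 17. Among the 8 were edgeR with TMM scaling (adjusted p = 0.0411), DESeq2 (0.0327), and leaving out 4T1 replicate 2 (0.0286) or 4TO7 replicate 2 (0.0423). The remaining tested genes, Dnajb6 and Dnajb4, had overlapping groups. Dnajb3, Dnajb7 and Dnajb8 had no read in any library, and Dnajb13 had at most 1.87.

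The cytosolic chaperonin CCT (also called TRiC), the folding machine of actin and tubulin, builds each of its rings from different subunits. Of the 7 subunit genes tested, 6 were higher in 4T1, against 25.1% of all tested genes, by a narrow range of ratios. Tcp1, the alpha subunit, was read at 35404, 33381 and 32044 normalised reads in 4T1 and at 22444, 27807 and 21350 in 4TO7, 1.41-fold higher in 4T1 (adjusted p = 0.0166). Cct5 stood at 38991, 34535 and 32517 against 16978, 20696 and 15243, and its 2.00-fold difference was the largest of the class (log2 difference 1.01 ± 0.15 SE, adjusted p = 0.000879). Between these lay Cct4 (1.81-fold), Cct2 (1.77-fold), Cct8 (1.67-fold) and Cct3 (1.55-fold), with adjusted p-values from 0.00103 to 0.0281. Cct7 was not called (17376 ± 739 in 4T1 against 14160 ± 3144 in 4TO7, adjusted p = 0.148).

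All 7 tested subunits had 4TO7 replicate 2 as the highest library of that line, at a median of 1.28 times the mean of the other two. Without it Cct7 was also called higher in 4T1 (log2 difference 0.49, adjusted p = 0.00903). Some calls were lost when another library was left out. These were Cct8 without 4T1 replicate 2 (adjusted p = 0.0522), Tcp1 without 4TO7 replicate 1 or 3 (adjusted p = 0.07 and 0.0695), and Cct3 without any 1 of 4 libraries (adjusted p up to 0.0943). Tcp1 was also lost with quantile normalisation (adjusted p = 0.0849). Cct3 was lost in 7 of the 17 alternatives, among them equal totals (adjusted p = 0.0532), quantile normalisation (0.0616) and no trend (0.0536). Per 1000 bases of the principal transcript, the subunits ranged in 4T1 from 7119 ± 303 for Cct7 to 19076 ± 1788 for Cct5, and in 4TO7 from 4835 ± 1421 for Cct8 to 10537 ± 1655 for Cct2 (SD, n = 3). In 4TO7 Cct2, Tcp1 and Cct5 lay within 1 SD of their neighbours in that order. The testis-type subunit gene Cct6b had at most 8.97 normalised reads, and Cct8l1 at most 0.996, and neither was tested.

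The mitochondrial chaperonin pair was higher in 4T1. Hspd1 (HSP60), the barrel, was read at 32532, 36986 and 28193 normalised reads in 4T1 and at 13330, 24016 and 12859 in 4TO7, 1.95-fold higher in 4T1 (log2 difference 1.01 ± 0.24 SE, adjusted p = 0.00915). Hspe1 (HSP10), its lid, stood at 4532, 3573 and 2773 against 1582, 2573 and 1259, 2.01-fold higher in 4T1 (log2 difference 1.04 ± 0.28 SE, adjusted p = 0.0152). In both genes 4TO7 replicate 2 came close to the lowest 4T1 library without reaching it, with 1.83 and 1.81 times the mean of the other two. The Hspe1 call was lost without 4T1 replicate 1 or 2 (adjusted p = 0.0693 and 0.0527, lowest of all alternatives 0.000831), while the Hspd1 adjusted p stayed between 9.81e-05 and 0.0427. The genes share 1 promoter region, in which the Hspe1 site printed above lies, a run of letters that contains the 3-unit pattern. Hspd1 shares 38% of its 50-base words with the pseudogene Hspd1-ps3, listed at 1.39% of its level in 4T1 and 1.44% in 4TO7.

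Small heat shock proteins differed in both directions: of 5 tested genes, Hspb1 was higher in 4T1, and Hspb6 and Hspb8 were higher in 4TO7. Over all tested genes, 25.1% were higher in 4T1 and 23.9% in 4TO7. Hspb1 (HSP27, chr5:135887919-135889563), a holdase that also binds actin, was read at 90.8, 71.7 and 92.7 normalised reads in 4T1 and had no read in any 4TO7 library. Set against 3 reads over the 3 4TO7 libraries, the level was at least 85.9-fold higher in 4T1 (adjusted p = 1.11e-06). Hspb1 passed the filter only through its 4T1 libraries, so its call, counted among the 21 higher in 4T1, was in part fixed by the filter. Hspb6 (HSP20, chr7:30552178-30555443), known from muscle, stood at 524, 436 and 476 in 4T1 and at 3123, 2047 and 3200 in 4TO7. It was 5.83-fold higher in 4TO7 (log2 difference -2.52 ± 0.20 SE, adjusted p = 2.34e-05), with no overlap. Hspb8, which works with Bag3 in selective autophagy, was 1.99-fold higher in 4TO7 (2439 ± 98.1 against 4850 ± 526, SD, n = 3, adjusted p = 0.000504).

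Of the other small heat shock genes, Hspb2 (73.4 ± 14.0 against 73.1 ± 31.0) and Hspb11 (682 ± 155 against 707 ± 204) were not called, with adjusted p-values of 0.865 and 0.933. Hspb7 was read at 2.81, 4.19 and 6.97 in 4TO7 and had no read in 4T1, at least 4.70-fold higher in 4TO7 against 3 reads over the 3 4T1 libraries. It did not pass the filter and was not tested. Hspb9 had at most 1.99 in any library and Hspb3 none. Hspb1 shares 48.8% of its 50-base words with Hsp25-ps1, which had at most 2.90 normalised reads in 4T1 and none in 4TO7. It shares 38.3% with Gm9817, which had none in 4T1 and at most 1.05 in 4TO7. Hspb2 shares 24.4%, strand disregarded, with the more abundant Cryab (671 ± 173 in 4T1 and 353 ± 76.6 in 4TO7, SD, n = 3).

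**Figure D2:**
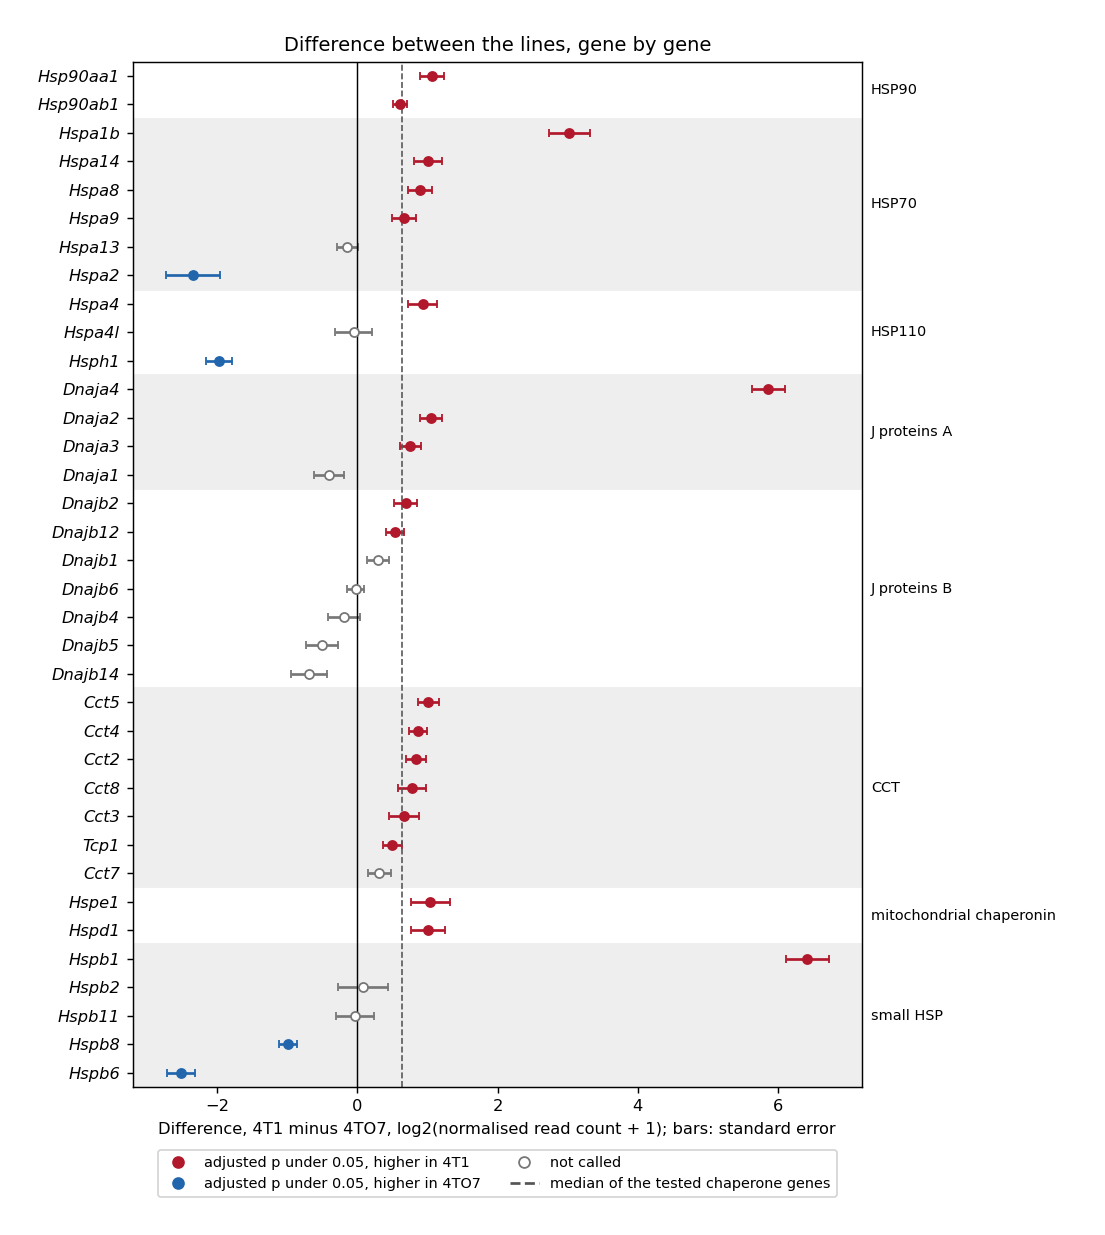
Difference between the lines for each tested chaperone gene (4T1 minus 4TO7, in log2 of the normalised read count plus 1), with its standard error, grouped by class. Red points were higher in 4T1 (21 genes), blue points higher in 4TO7 (4 genes) and open points were not called (11 genes), and the dashed line is the members' median of 0.64.

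The chaperone genes together took a larger share of all reads in 4T1. Their reads were 1.81%, 1.68% and 1.68% of all normalised reads in the 4T1 libraries and 1.19%, 1.41% and 1.13% in 4TO7, without overlap. Without Hsp90ab1 the shares were 1.28%, 1.18% and 1.14% against 0.801%, 1.05% and 0.754%. With 3 against 3 libraries an exact permutation test (two-sided) cannot give a p below 0.1, and each of these comparisons gave that p.

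Within the chaperone reads, the make-up differed by class. HSP110 made up 6.74% ± 0.538 of them in 4T1 and 11.96% ± 1.19 in 4TO7 (SD, n = 3), small heat shock proteins 0.576% ± 0.0247 and 1.99% ± 0.382, and J proteins of class B 1.72% ± 0.112 and 2.48% ± 0.311. CCT made up 28.7% ± 0.687 in 4T1 and 26.5% ± 1.62 in 4TO7, and here the lowest 4T1 library (27.913%) and the highest 4TO7 library (27.910%) nearly met. In these 4 classes the libraries of the lines did not overlap (exact permutation p = 0.1, two-sided, the smallest possible). HSP90 (38.5% ± 1.47 against 36.4% ± 3.42), HSP70 (15.3% ± 1.12 against 13.6% ± 0.792), the mitochondrial chaperonin (5.54% ± 0.689 against 4.22% ± 0.978) and J proteins of class A (2.97% ± 0.259 against 2.89% ± 0.225) overlapped, with exact permutation p-values of 0.6, 0.2, 0.2 and 0.7. The HSP90 difference of 2.11 percentage points was 0.143 without 4TO7 replicate 2.

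Ratios of 2 genes within a library do not depend on how libraries were scaled. The ratio of Hsph1 to Hspa4 was 0.297, 0.230 and 0.227 in 4T1 and 1.89, 1.59 and 2.18 in 4TO7, on opposite sides of 1. The inducible Hspa1a plus Hspa1b made up a fraction of Hspa8 of 0.0158, 0.0216 and 0.0159 in 4T1 and 0.00299, 0.00498 and 0.00434 in 4TO7. The limit on shared reads given above for these genes applies to that fraction. Dnaja1 over Dnajb1 was 1.84, 2.20 and 1.63 in 4T1 and 2.99, 3.39 and 2.75 in 4TO7. Each of these ratios separated the lines (exact permutation p = 0.1, two-sided, the smallest possible), and the 5 ratios were one family, in which Benjamini-Hochberg adjustment cannot bring any p below 0.1. Hsp90aa1 over Hsp90ab1 was 0.266, 0.277 and 0.246 against 0.170, 0.250 and 0.164, and overlapped only through 4TO7 replicate 2 (exact permutation p = 0.2). Without that library the log2 difference of this ratio was 0.653, against 0.459 with all libraries. Hspe1 over Hspd1 was 0.139, 0.0966 and 0.0983 against 0.119, 0.107 and 0.0979, so lid and barrel kept overlapping ratios (exact permutation p = 0.9).

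**Figure D3:**
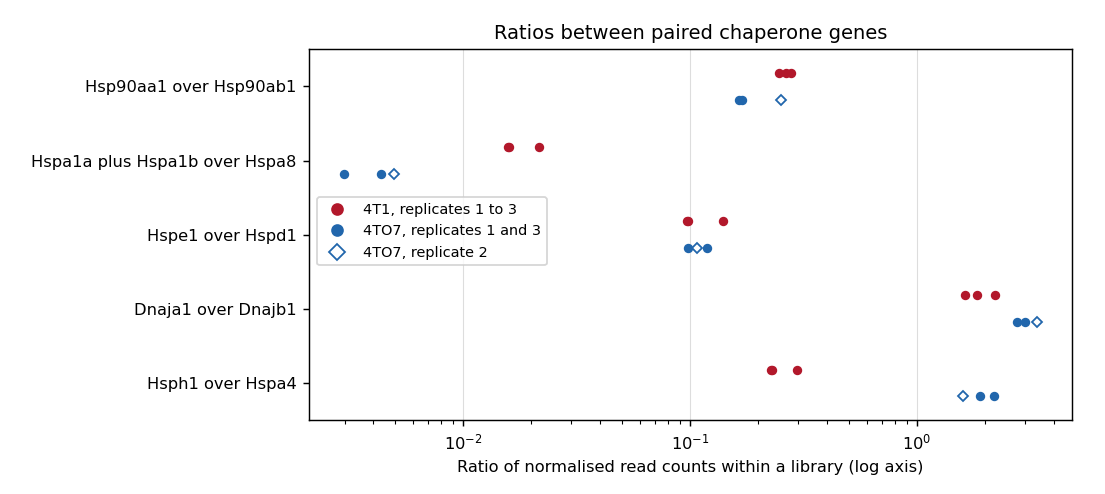
Ratio of normalised read counts of paired chaperone genes within each library (log axis), with 4T1 in red, 4TO7 in blue and 4TO7 replicate 2 as an open diamond. Hsph1 over Hspa4 lies between 0.227 and 0.297 in 4T1 and between 1.59 and 2.18 in 4TO7, and Hspe1 over Hspd1 overlaps between the lines.

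Genes that work with these chaperones were followed in 9 lists. Of their 105 tested genes, 35 were higher in 4T1, where 25.1% of all tested genes were, and 11 were higher in 4TO7, where 23.9% of all tested genes were. The first count was 18 without 4TO7 replicate 1, 19 without 4TO7 replicate 3 and 22 with libraries scaled to equal totals. Of the regulators of the heat shock response, Hsf1, the main heat shock factor, was read at 2085, 1889 and 1514 normalised reads in 4T1 and at 1155, 1476 and 1016 in 4TO7 (log2 difference 0.59 ± 0.19 SE, adjusted p = 0.031). That call was lost in 7 of the 17 alternatives, among them leaving out 4T1 replicate 1 or 2 or 4TO7 replicate 1 or 3 (adjusted p up to 0.111, lowest 0.00627). Hsf2 was not called (1482 ± 23.2 against 1438 ± 181, adjusted p = 0.788).

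Among the 19 HSP90 co-chaperones, 6 were higher in 4T1 and 2 in 4TO7, against 25.1% and 23.9% of all tested genes. Stip1 (Hop), which bridges HSP70 and HSP90, was read at 20021, 17824 and 15338 in 4T1 and at 6859, 10652 and 6336 in 4TO7 (log2 difference 1.19 ± 0.21 SE, adjusted p = 0.00219). Cdc37l1, a relative of the kinase co-chaperone Cdc37, differed by 1.16 (adjusted p = 0.00848) and Ptges3 (p23), which stabilises closed HSP90, by 0.79 (adjusted p = 0.0101). Ttc4 (log2 difference -0.70) and Tomm34 (-0.42) were higher in 4TO7. Of the 10 exchange and docking factors of HSP70, 3 were higher in 4T1, a share near the 25.1% of all tested genes: Bag4 (log2 difference 0.81), Bag2 (0.59) and Dnajc7 (0.40). Bag3, itself a classical heat-inducible gene (2906 ± 276 against 3084 ± 435, adjusted p = 0.686), and the ubiquitin ligase Stub1 or CHIP (4321 ± 420 against 4397 ± 220, adjusted p = 0.869) were not called. The Dnajc7 call was lost in 7 alternatives, among them leaving out 4T1 replicate 2 or 4TO7 replicate 1 or 3 (adjusted p up to 0.103), and the Bag2 call without 4TO7 replicate 1 or 3 (adjusted p up to 0.0577).

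Of the 18 J proteins of class C tested, 5 were higher in 4T1, a share near the 25.1% of all tested genes, and 3 in 4TO7, against 23.9%. Among them were Dnajc6 or auxilin (log2 difference 2.61) and Dnajc21 (2.46), and Dnajc18 (-1.58), Dnajc16 (-1.32) and Dnajc5 (-0.34) were higher in 4TO7. Of 11 prefoldin and CCT cofactor genes, 4 were higher in 4T1, against 25.1% of all tested genes. Pdcl3 (0.96), Pfdn1 (0.66) and Txndc9 (0.49) led, and Pfdn5 (-0.63) was higher in 4TO7. Of 16 CCT clients and tubulin cofactors, 10 were higher in 4T1, against 25.1% of all tested genes. Tubb2a (1571 ± 250 against 158 ± 23.2, log2 difference 3.30), Tubb2b (2.48) and Tbcd (1.09) led, and Tbcc (-0.80) was higher in 4TO7.

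Of the 17 mitochondrial partners, 5 were higher in 4T1, also near the 25.1% of all tested genes. Timm44, which tethers mortalin to the import channel, differed by 0.79 (adjusted p = 0.00167), Trap1, the mitochondrial HSP90, by 0.66 (4672 ± 237 against 2964 ± 112, adjusted p = 0.00248) and Grpel1, the exchange factor of mortalin, by 0.58 (3435 ± 734 against 2289 ± 377, adjusted p = 0.0354). The Grpel1 call was lost in 7 alternatives, among them leaving out 4T1 replicate 1 or 2 or 4TO7 replicate 1 or 3 (adjusted p up to 0.121). Cryab, the small heat shock protein alpha-B crystallin, was 1.90-fold higher in 4T1 (adjusted p = 0.0154), and not called without 4T1 replicate 1 or 4TO7 replicate 3 (adjusted p up to 0.0595).

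Of the 9 ER chaperone genes, 4 were higher in 4TO7, against 23.9% of all tested genes, and the other 5 were not called. Hspa5 (BiP), the ER HSP70, was read at 65831, 53764 and 55466 in 4T1 and at 89589, 133455 and 95294 in 4TO7 (log2 difference -0.85 ± 0.17 SE, adjusted p = 0.00453), and Hsp90b1 (GRP94), the ER HSP90, differed by -0.84 (adjusted p = 0.00171). Sdf2l1 (-1.34) and Dnajc3 (-0.44) were also higher in 4TO7. The Sdf2l1 adjusted p was 0.0503 without 4T1 replicate 2. In the HSP70 and HSP90 families the main cytosolic genes, Hspa8, Hsp90aa1 and Hsp90ab1, were called in the opposite direction to their ER counterparts.

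**Figure D4:**
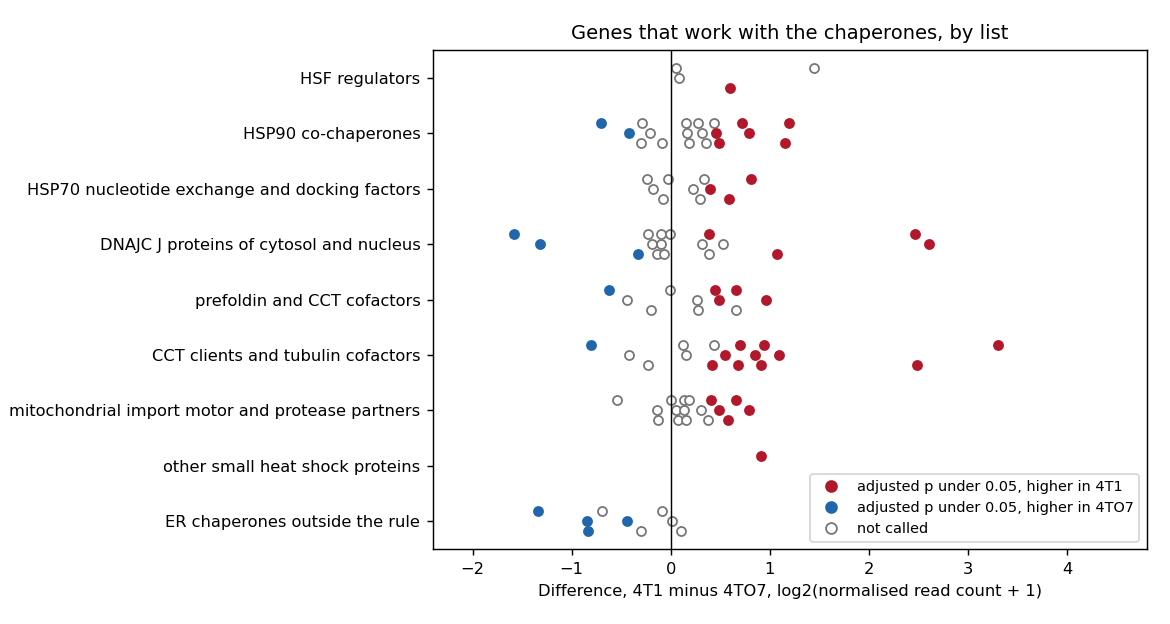
Difference between the lines (4T1 minus 4TO7, in log2 of the normalised read count plus 1) of the tested genes of the 9 lists of chaperone partners, with 1 point per gene. Red points were higher in 4T1, blue points higher in 4TO7 (11 genes) and open points not called, and 1 of the 35 genes higher in 4T1 is not drawn.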

How the data were processed

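Total RNA was sequenced from 6 libraries, 3 per line. Per the submitters' processing notes, the tools were STAR 2.5, featureCounts 1.5 and DESeq2, with build GRCm38. The deposited sample columns hold a normalised signal, taken as reads per gene divided by 1 size factor per library. These factors (0.954 to 1.07) were derived from the smallest positive value of each column. The authors' own comparison columns in the deposited table (mean signal, log2 fold change and its error, test score, p-value and adjusted p-value) were used only for the 1 sentence that names them. Divided by the value of a single read in its library, 100% of values came out whole (tolerance 1e-06), so reads were recovered for the count tests. The 14276 genes that reached 10 in 3 or more libraries were tested with limma 3.58.1 in R 4.3.3 on log2(value + 1), which understates changes of low genes, with trend and robust settings, line alone as the term, two-sided, and Benjamini-Hochberg adjustment over all of them at 0.05. A fold without log2 is the ratio of line means. Levels per 1000 bases use the principal transcript of GENCODE M21, whose transcripts also gave the shared 50-base words.

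Values in every library are given for members called with a log2 difference of at least 1 and for a core set (Hsp90aa1, Hsp90ab1, Hspa8, Hspa1a, Hspa1b, Hspa4, Hsph1, Hspa9, Hspd1, Hspe1, Hspb1, Dnaja1, Dnajb1, Tcp1). Up to 4 others per class and up to 3 called genes per partner list are named, largest difference first, with Hsf1, Hsf2, Stip1, Stub1, Bag3, Trap1 and Grpel1. One called partner gene and 1 leukocyte marker enter the counts and sums but are not reported here by name. Other genes named were chosen after their values were seen. The members and lists were chosen with earlier results of these data known. Alternatives changed the pseudocount, filter, scaling, variance model, tool (edgeR 4.0.16, DESeq2 1.42.0) and libraries. The pipeline was tested on simulated data.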

Additional observations from a re-analysis of the deposited data

How the results depend on the processing

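Of the 25 members called, 20 kept their call in all 17 alternatives, and none of the 25 changed direction. Among members not called, Hspa4l, Hspb2, Hspb11 and Dnajb6 changed sign between alternatives. Members higher in 4T1 numbered 18 to 23 when 1 library was left out and 19 to 21 otherwise, and members higher in 4TO7 numbered 4 to 6. Scaling to equal totals moved the median difference of all genes by -0.128 on the log2 scale; partner genes higher in 4T1 then fell from 35 to 22. Leaving out 1 library gave 18 to 44 partner genes higher in 4T1 (18 without 4TO7 replicate 1, 19 without replicate 3) and 27 to 55 in either line (46 with all libraries). The small difference in the share of J proteins of class A (0.0768 percentage points) ranged from -0.0728 to 0.189, and was -0.0355 without 4TO7 replicate 3. That in log2 of Hspe1 over Hspd1 (0.03) ranged from -0.142 to 0.122, and was -0.0385 without 4TO7 replicate 3. The cause was not tested.

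Deviations of same-numbered libraries correlated at r = -0.0135, 0.266 and 0.328 for replicates 1, 2 and 3. Replicates 2 and 3 of 4T1 correlated best with their own number, and 4T1 replicate 1 with 4TO7 replicate 2 (0.1075). These values do not settle whether same-numbered libraries were paired. With the replicate number as a block, members called numbered 21 and 6, with Dnaja1 (adjusted p = 0.0378) and Dnajb14 (0.0411) added in 4TO7, and partner genes in either line 52. Depth limits the members with few reads: 13 were not tested.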
